A study of Mus musculus with 6 samples.

Results

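Receptor-type protein tyrosine phosphatases are membrane proteins that remove phosphate from tyrosines on other proteins, the reverse of what tyrosine kinases do. The 10 genes described here (Ptprt, Ptprm, Ptprk, Ptprs, Ptprc, Ptprj, Ptpro, Ptpra, Ptpre and Ptprg) are 10 of the 21 genes of this family and 10 of the 55487 genes in the normalized count table. They were taken by name, and the set was chosen with their values in these 6 libraries already known. Their PBS against pIpC contrast is therefore given as a description, without a test. The other 11 genes of the family and the lists of related genes were tested in a fit over all genes. These lists too were written with earlier results of these data known, so their tests are not independent of the choice.

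RNA was sequenced from GFP+ bone marrow cells of mice that had received MLL-AF9 leukemia cells, with 3 libraries labelled PBS and 3 labelled pIpC. The transplanted cells of both groups carried Mx1-Cre, Brd9 fl/fl and MA9 (MLL-AF9, a fusion oncogene of acute myeloid leukemia) on a C57BL/6 background and were CD45.2(+), and the recipients were CD45.1(+) CD45.2(-). Recipients got PBS or 20 mg/kg pIpC in 3 doses, and marrow of femora and tibiae was taken 10 days after injection. pIpC mimics viral double-stranded RNA and sets off an interferon response, which switches on Mx1-Cre. By its labels the comparison asks what follows induced loss of Brd9, and interferon and Cre induction differ together with it. The groups also differed in Xist, which is transcribed in female cells, in Hoxa9 and in cell type markers, as given below. Sex and makeup of the cells thus cannot be told apart from the label. Recipients were 6 weeks old at transplant. The labels do not say whether each library came from 1 animal, so the spread between libraries may be partly technical.

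Most of these phosphatases have a tandem of catalytic domains inside the cell, of which the one next to the membrane does most of the work. CD45, the product of Ptprc, is the classic example in blood: it removes the inhibitory phosphate from the tail of Src-family kinases in leukocytes. The R2B subfamily (Ptprt, Ptprm, Ptprk and Ptpru) bind copies of themselves on neighbouring cells and act at cell contacts. Ptprt is best known in the nervous system and as a tumour suppressor of colon, with STAT3 and paxillin among its known substrates.

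The targeted gene did not check the labels. Brd9 was at 1835 ± 176 normalized counts (SD, n = 3) in PBS libraries and 2103 ± 139 in the libraries labelled pIpC, and each of the latter was above each PBS library. In the fit over all genes Brd9 had a log2 fold change of 0.20 (SE 0.13, limma adjusted p = 0.259), and it was not called at the threshold of 0.1. The Brd9 values are gene totals, which do not show the deleted exons apart from the rest. The study reports that the deletion lowered Brd9 mRNA in whole bone marrow of its knockout mice, and the totals here were not lower. The second group is therefore called here "the libraries labelled pIpC". Hoxa9, a target of MLL-AF9, was at 5130 ± 195 normalized counts in PBS and 256 ± 28.4 in libraries labelled pIpC, and Xist, which is transcribed in female cells, was at 46.6 ± 28.8 and 21515 ± 4104. Summed neutrophil markers ranged from 19383 to 37601 normalized counts in PBS and from 1892464 to 1964627 in libraries labelled pIpC, and all 10 were higher in the second group without overlap. All 10 B cell, all 10 T and NK cell, all 10 erythroid and 9 of 10 megakaryocyte markers lay above PBS too. Their sums were 139 to 307 against 1473 to 2687 for B cells, 187 to 321 against 3878 to 4540 for T and NK cells, 54.5 to 158 against 3441 to 4867 for erythroid cells and 1235 to 1639 against 3553 to 4514 for megakaryocytes. Ms4a1, Trac, Slc4a1, Trim10, Gp1bb, Gp6, Ppbp and Treml1 were among the markers at 0 in all PBS libraries. Of 10 macrophage markers, 8 lay above and 2 below PBS, with sums of 10325 to 14629 in PBS and 6559 to 8507 in libraries labelled pIpC. The PBS sum mostly reflects 1 gene, Vcam1, at a PBS mean of 8421. Plasmacytoid dendritic cell markers lay above PBS for 8 of 10 with sums of 4149 to 4803 against 6366 to 6844, and endothelial and stromal markers for 7 of 10, with 2 below and sums of 1430 to 2442 against 1925 to 2240. The part of cell makeup in the values below was not tested, and in bulk RNA a change in the number of cells of a type and a change in RNA per cell cannot be told apart.

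PBS replicate 3 stood apart. The chi-square statistic per gene was 194 and 171 between it and PBS replicates 1 and 2, compared with 6.30 between replicates 1 and 2 and 7.93 to 16.8 between libraries labelled pIpC. Long genes were low in it. The listed genes have exons of 6723 to 18313 bases in all, whereas the median tested gene has 3812, and the 3095 tested genes in that length range had a median log2 difference of -0.58 between PBS replicate 3 and the mean of the other two, against 0.00 over all tested genes. Of the 10 listed genes, 7 were lowest in replicate 3 among the PBS libraries, compared with 43.8% of all tested genes. Values without this library are therefore given for each listed gene that passed the filter.

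All 10 genes were matched to start sites in RefSeq (GRCm38.p6). The 250 bases upstream are shown for the gene that was nearly without reads in the libraries labelled pIpC and for the 2 listed genes with the most added normalized counts there. Capitals mark matches, on either strand, to any of 4 short motifs. GGGCGG is the GC box. GAGGAA is a core bound by PU.1 and other ETS factors. The TATA box was searched as TATAAA. The MEIS core was searched as TGACAG. They lie on the minus strand at chr2:162661148-162661397 for Ptprt, chr1:138175306-138175555 for Ptprc and chr2:90580596-90580845 for Ptprj. RefSeq gives 2 starts for Ptprc and 2 for Ptprj, and the one nearest the GENCODE start was used. It lies 403 bases inside the GENCODE gene for Ptprc and 52 bases inside for Ptprj, so the Ptprc window lies within the gene as GENCODE places it and the Ptprj window in part.
Ptprt: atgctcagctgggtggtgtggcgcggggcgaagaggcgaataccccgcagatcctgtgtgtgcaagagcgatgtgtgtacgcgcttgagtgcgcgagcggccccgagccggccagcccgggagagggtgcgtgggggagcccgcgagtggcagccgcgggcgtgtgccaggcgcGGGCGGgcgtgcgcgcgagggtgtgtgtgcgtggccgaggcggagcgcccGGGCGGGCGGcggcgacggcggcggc
Ptprc: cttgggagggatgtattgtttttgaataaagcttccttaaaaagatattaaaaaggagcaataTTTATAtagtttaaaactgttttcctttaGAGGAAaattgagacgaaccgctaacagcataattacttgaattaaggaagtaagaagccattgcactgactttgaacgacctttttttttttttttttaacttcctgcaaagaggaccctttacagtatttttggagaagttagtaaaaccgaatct
Ptprj: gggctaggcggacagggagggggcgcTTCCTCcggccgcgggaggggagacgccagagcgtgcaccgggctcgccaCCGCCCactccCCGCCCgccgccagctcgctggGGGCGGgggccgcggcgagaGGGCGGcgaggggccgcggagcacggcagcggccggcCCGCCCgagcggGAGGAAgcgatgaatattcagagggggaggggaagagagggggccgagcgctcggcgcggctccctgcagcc

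Upstream of Ptprt, 76.4% of bases were G or C with 39 CpG dinucleotides, and 3 GGGCGG matches were found, of which 2 overlap each other. The Ptprc window was the reverse, with 31.6% G or C, 4 CpG, no GC box, 1 GAGGAA and 1 TATAAA. The Ptprj window had 79.2% G or C, 34 CpG, 5 GGGCGG and 2 GAGGAA matches. Over the 32851 windows of the RefSeq table the median was 52.4% G or C and 6 CpG, and the share with a match was 32.7% for GGGCGG, 23.3% for GAGGAA, 12.4% for TATAAA and 15.9% for TGACAG. Apart from Ptprc, the other listed genes also had a G or C share above that median, from 53.6% for Ptpro to 81.2% for Ptprm, so a window rich in G and C was shared by Ptprt with genes of the opposite direction. These matches describe letters only.

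Of the 10 listed genes, 8 passed the filter of a mean of at least 10 normalized counts over the 6 libraries, and Ptprk and Ptprg did not. In 5 (Ptprt, Ptprm, Ptprs, Ptpro and Ptpra) every library labelled pIpC lay below every PBS library, in 4 (Ptprc, Ptprj, Ptprk and Ptprg) every one lay above, and in Ptpre the groups overlapped. Groups did not overlap for 56.8% of the 15020 genes that passed the filter, and for 7 of the 8 listed genes that passed. As the genes were chosen on this contrast, nothing is read from that count. The plot of the listed genes by library shows these values together.

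**Figure D1:**
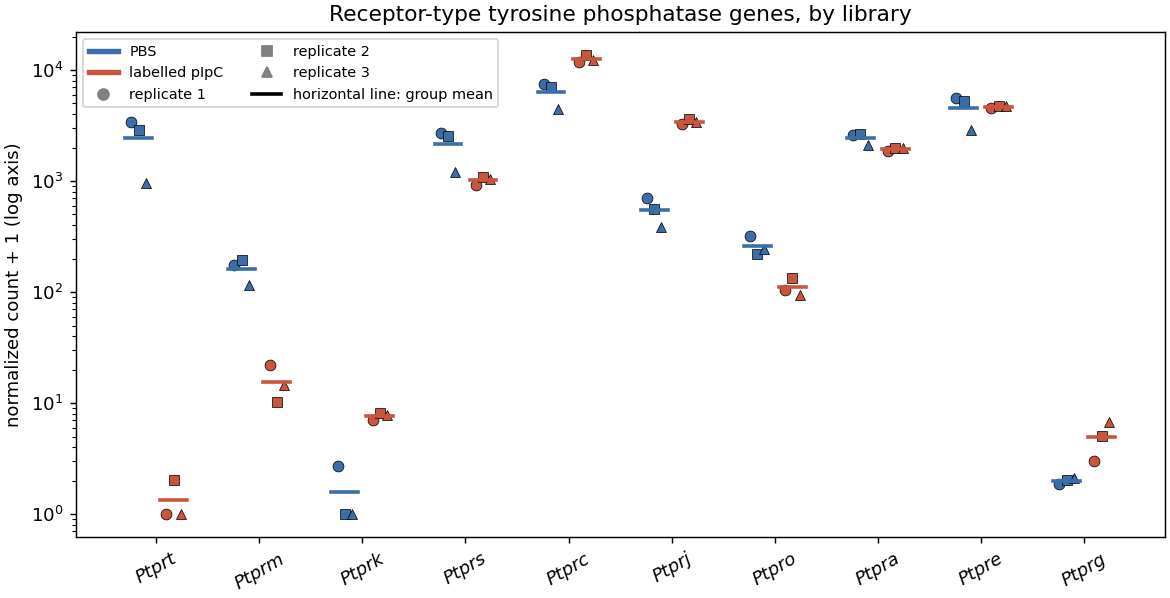
Normalized count plus 1 (log axis) of the 10 listed genes in each library, with PBS in blue and libraries labelled pIpC in red, a marker shape for each replicate and a horizontal line at the group mean. Ptprt goes from 955 to 3407 normalized counts in PBS to 0 or 1.02 in the libraries labelled pIpC, and PBS replicate 3 (triangle) is the lowest PBS library for 7 genes.

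Within the R2B subfamily, Ptprt had 3407, 2905 and 955 normalized counts in PBS replicates 1, 2 and 3 and 0, 1.02 and 0 in libraries labelled pIpC 1, 2 and 3. In reads these were 3938, 2870 and 844 against 0, 1 and 0. PBS replicate 3 was at 0.303 of the mean of the other two, and it was still far above any library labelled pIpC. The group means were 2422 ± 1295 and 0.341 ± 0.590 normalized counts (SD, n = 3), and the log2 difference was -10.71 (SE 0.67), which depends on the pseudocount of 1. Counted over groups, 7652 reads stood against 1, a ratio of read rates of 7620 with an exact 95% interval of 1367 to 301024 that covers counting error only. Without PBS replicate 3 the log2 difference was -11.28. Ptprt passed the filter only through the PBS libraries.

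Ptprt extends over 1139158 bases of chromosome 2 (161521990 to 162661147, minus strand, GRCm38) with 35 exons after merging transcripts and 12611 exonic bases, and no exon of another gene overlaps them. Ptprtos, an antisense gene annotated within it, was at 0 in all 6 libraries. Genes with 3 reads or fewer over the libraries labelled pIpC and a PBS mean of at least 1000 normalized counts numbered 3, namely Cyp2a5 (4883 in PBS, 0 reads), Xlr (3065 in PBS, 3 reads) and Ptprt. Cyp2a5 and Xlr are named by this rule, which was set after the values were seen.

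Ptprm (chromosome 17, 66666947 to 67354457, minus strand), a homophilic adhesion receptor of cell junctions, had 173, 192 and 115 normalized counts in PBS and 20.96, 9.20 and 13.5 in libraries labelled pIpC. The groups were far apart, at 160 ± 40.0 and 14.6 ± 5.95, with a log2 difference of -3.41 (SE 0.39) and -3.63 without PBS replicate 3. A processed pseudogene shares 457 exonic bases with it. Ptprk (chromosome 10, 28074820 to 28597397, plus strand), another homophilic receptor that acts on junction proteins, stood close to the limit of counting, with 2, 0 and 0 reads in PBS and 6, 7 and 7 in libraries labelled pIpC. Its ratio of read rates was 10.0 with an exact 95% interval of 2.44 to 88.6 for counting error. Of the listed R2B genes, then, Ptprt and Ptprm had their higher values in PBS and Ptprk in the libraries labelled pIpC.

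Ptprs (R2A, chromosome 17, 56412426 to 56476483, minus strand), a receptor for heparan and chondroitin sulfate proteoglycans that is known in axon growth and in plasmacytoid dendritic cells, had 2731, 2562 and 1206 normalized counts in PBS and 919, 1092 and 1041 in libraries labelled pIpC. The lowest PBS library was only slightly above the highest library labelled pIpC. The means were 2166 ± 836 and 1018 ± 88.9, the log2 difference was -1.004 (SE 0.39), and without PBS replicate 3 it was -1.38. Ptprg (R5, chromosome 14, 11553532 to 12242041, plus strand), which has a carbonic anhydrase-like domain outside the cell and binds contactins, had 1, 1 and 1 reads in PBS and 2, 4 and 6 in libraries labelled pIpC. Its ratio of read rates was 4.02, with an exact 95% interval of 1.08 to 22.2 for counting error, at counts too low to say more.

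Ptprc (R1, chromosome 1, 138062861 to 138175708, minus strand), which encodes CD45, had 7558, 6963 and 4490 normalized counts in PBS and 11839, 13597 and 12302 in libraries labelled pIpC. It had the most normalized counts of the listed genes in both groups. The means were 6337 ± 1627 and 12579 ± 911, and the log2 difference was 1.02 (SE 0.24), 0.79 without PBS replicate 3 and 0.59 after each library's trend with exonic length was removed. Donor and recipient carried different CD45 alleles, CD45.2 and CD45.1, which a gene total does not separate.

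Ptprj (R3, chromosome 2, 90429754 to 90580647, minus strand), which encodes CD148, a phosphatase of Src-family kinases in macrophages, platelets and B cells, had 708, 565 and 386 normalized counts in PBS and 3251, 3608 and 3421 in libraries labelled pIpC. The lowest of the second group was several times the highest PBS library. The means were 553 ± 161 and 3426 ± 179, and the log2 difference was 2.67 (SE 0.26), or 2.44 without PBS replicate 3 (2.45 after removal of the length trend). Ptpro, also R3 (chromosome 6, 137252319 to 137463233, plus strand), is known in kidney podocytes and, in shorter forms, in B cells and macrophages. It had 322, 218 and 244 normalized counts in PBS and 103, 133 and 93.8 in libraries labelled pIpC, at means of 261 ± 54.1 and 110 ± 20.4. Its log2 difference of -1.24 (SE 0.22) was opposite in sign to that of Ptprj, and it was -1.28 without PBS replicate 3.

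Ptpra (R4, chromosome 2, 130450278 to 130556124, plus strand), which removes the inhibitory phosphate of Src, had 2593, 2658 and 2099 normalized counts in PBS and 1879, 1990 and 1968 in libraries labelled pIpC. The groups were close, at 2450 ± 306 and 1946 ± 58.6, with a log2 difference of -0.32 (SE 0.11) and -0.43 without PBS replicate 3. Ptpre, the other R4 gene (chromosome 7, 135537481 to 135686293, plus strand), makes a membrane and a cytosolic form in blood cells. It had 5617, 5210 and 2891 normalized counts in PBS and 4513, 4708 and 4757 in libraries labelled pIpC. The pIpC-labelled libraries lay between the low PBS replicate 3 and the other two, so the log2 difference of 0.09 (SE 0.30) turned to -0.22 without that library, to -0.03 with quantile normalization and to -0.19 when the length trend was removed. Antisense genes share 327 exonic bases with Ptpra and 209 with Ptpre, and with libraries labelled unstranded their reads cannot be told apart.

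Levels were compared between genes as normalized counts per kilobase of exons. Exons of all annotated transcripts were merged, to 18313 bases for Ptprc and 10201 for Ptpre, so the order between genes depends on these lengths. By normalized counts alone Ptprc was above Ptpre in PBS, at means of 6337 and 4573. Summed over the 21 genes of the family this level was 1959, 1832 and 1048 in PBS and 1829, 2047 and 1940 in libraries labelled pIpC, so that the groups overlapped while the share of single genes differed. In PBS the order per kilobase was Ptpre (448 ± 144), Ptprc (346 ± 88.8), Ptpra (226 ± 28.2), Ptprt (192 ± 103) and Ptprs (145 ± 55.7). Ptpre was above Ptprc and Ptprc above Ptpra in each PBS library, whereas Ptpra and Ptprt, and Ptprt and Ptprs, changed places between libraries. In libraries labelled pIpC the order per kilobase was Ptprc (687 ± 49.7), Ptpre (457 ± 12.6), Ptprj (410 ± 21.4), Ptpra (179 ± 5.41) and Ptprs (67.9 ± 5.93), and the ranges of these neighbours did not overlap.

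By share of the per-kilobase sum, Ptprt made up 13.8%, 12.6% and 7.23% of the family in PBS and 0%, 0.00396% and 0% in libraries labelled pIpC. Ptprj made up 4.14% ± 0.392 and 21.2% ± 0.102 (SD, n = 3), and moved from the seventh place to the third. Ptprc had 21.7% ± 1.44 and 35.4% ± 0.831. A share takes out part of the effect of PBS replicate 3, and on this scale the Ptpre groups no longer overlapped, at 27.0% to 28.1% in PBS and 22.6% to 24.2% in libraries labelled pIpC. Shares add up to a fixed total, so a rise of some genes lowers the others, and their sizes depend on the same merged exon lengths. The plot of family shares gives the 10 genes with the largest share in either group.

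**Figure D2:**
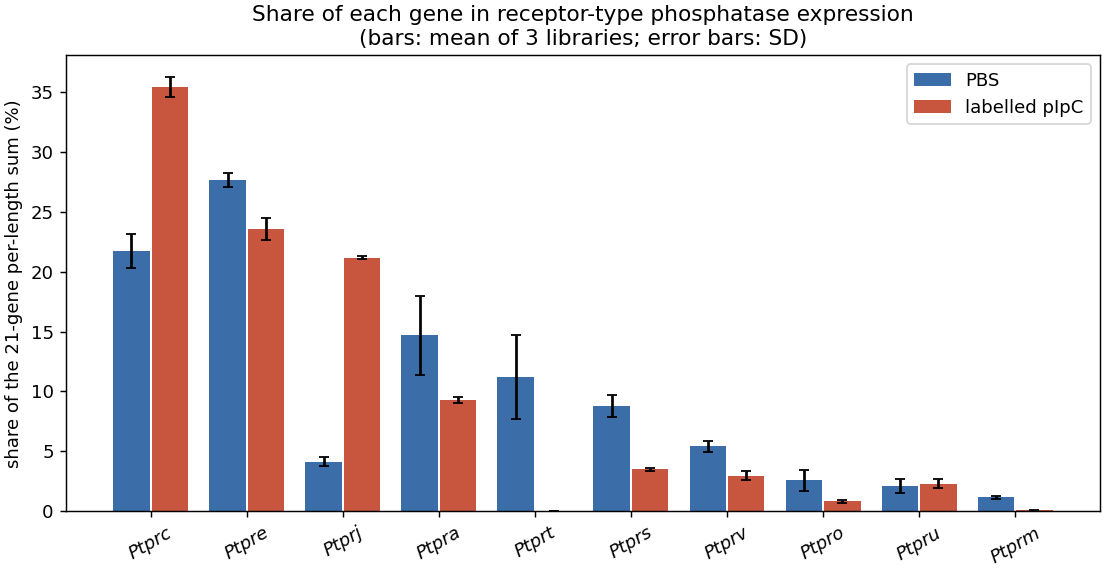
Share of the per-kilobase sum over 21 receptor-type phosphatase genes (%), as bars at the mean of 3 libraries with SD error bars, for the 10 genes with the largest share in either group. Ptprc and Ptprj take 35.4% and 21.2% in libraries labelled pIpC (red) against 21.7% and 4.14% in PBS (blue), while Ptprt takes 11.2% in PBS and 0.00132% in libraries labelled pIpC.

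The other 11 genes of the family were tested with limma on the log2 scale (pseudocount 1), with Benjamini-Hochberg adjustment over the 15020 genes that passed the filter, and called at an adjusted p under 0.1. Over all tested genes 45.3% were called, 25.0% higher and 20.4% lower in libraries labelled pIpC. Of these 11 genes, 6 were tested and 3 called, 2 higher and 1 lower, which is near that background. Ptprn2 passed the filter only through PBS, and Ptprr, Ptprf and Ptprb only through the libraries labelled pIpC, 4 of the 6 in all. The calls of these genes are given as description, not as support. Ptprn2, a phosphatase-like protein of secretory granules, had 86.5, 91.1 and 23.8 normalized counts in PBS and 2, 0 and 0 in libraries labelled pIpC. It fell, with a log2 fold change of -5.34 (SE 0.71, limma adjusted p = 0.00135), and 211 reads against 2 gave a ratio of read rates of 105 (28.7 to 873). Without PBS replicate 3 the log2 fold change was -5.96.

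Ptprr, which binds and restrains MAP kinases, had 6.06, 8.10 and 0 normalized counts in PBS and 52.9, 70.5 and 60.0 in libraries labelled pIpC, and rose by a log2 fold change of 3.95 (SE 0.83, limma adjusted p = 0.0101), or 2.94 without PBS replicate 3, which had no reads for it. It shares 650 exonic bases with an overlapping gene on the other strand. Ptprf (LAR), an R2A relative of Ptprs, had 6.06, 6.07 and 1.13 against 20.96, 44.95 and 13.5 normalized counts, and rose by 2.37 (SE 0.66, limma adjusted p = 0.0304), a call lost without replicate 2 labelled pIpC (1.91, adjusted p = 0.107). Both are low genes, with 15 and 14 reads in all over the PBS libraries.

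Ptprb, an endothelial phosphatase, had a log2 fold change of 2.33 (SE 1.05, limma adjusted p = 0.128), Ptpru, the R2B gene not listed, of 0.45 (SE 0.39, adjusted p = 0.399), and Ptprv of -0.55 (SE 0.30, adjusted p = 0.194). None of these 3 was called. Ptprb was called without PBS replicate 2 (3.21, limma adjusted p = 0.0565). Without PBS replicate 3, which had 0 reads for Ptprb and the lowest PBS value of all 3, Ptprb (1.07, limma adjusted p = 0.0516) and Ptprv (-0.89, adjusted p = 0.000403) were called and Ptpru (0.04) was not. Of the 5 genes not tested, Ptprq and Ptprz1 had no reads in any library and Ptprn had 3 reads in each group. Ptprd had 0 reads in PBS and 19 in libraries labelled pIpC, at least 6.36-fold higher against a floor of 3 reads over the group, and Ptprh had 0 and 5, at least 1.67-fold higher.

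Src-family kinases, which several of these phosphatases activate, were listed with their regulators Csk, Matk, Pag1 and Ptprcap. Of the 12 genes, 11 were tested, 9 rose and 1 fell, against 25.0% and 20.4% of all tested genes. The median log2 fold change was 1.82 compared with 0.01 over all tested genes. Src, Yes1, Lck and Blk (4 of the 11) passed the filter only through the libraries labelled pIpC. Their calls are given as description, not as support. Blk, a B cell kinase, had the highest value, at 1 read in PBS and 182 in libraries labelled pIpC, and its fitted log2 fold change was 5.60 (SE 0.43, limma adjusted p = 0.00013) and a ratio of read rates of 183 (32.4 to 7258). Matk, an inhibitor of the kinases, had the lowest, at -0.81 (SE 0.32, adjusted p = 0.0879), a call that was lost when any of the libraries labelled pIpC was left out (adjusted p of 0.172 to 0.228). The B cell and the T and NK cell marker sums given above moved with Blk and with Lck, a T cell kinase (3.97, adjusted p = 0.0008), and their part was not tested.

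Of the myeloid kinases, named after their values were seen, Fgr rose by a log2 fold change of 2.08 (SE 0.15, limma adjusted p = 0.000106) and Lyn by 0.61 (SE 0.11, adjusted p = 0.00457). Neutrophil marker sums moved the same way, and their part was not tested. Csk, the kinase that puts on the phosphate that CD45 takes off, was at 2651 ± 648 and 2791 ± 104 normalized counts, with a log2 fold change of 0.10 (SE 0.18, adjusted p = 0.689), while Pag1, the adaptor that brings Csk to the membrane, rose from 337 ± 141 to 3559 ± 295, a log2 fold change of 3.50 (SE 0.34, adjusted p = 0.000347). Ptprcap, a partner of CD45, had 0 reads in PBS and 3 in libraries labelled pIpC, but other genes overlap its exons, so this count is uncertain.

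Of 16 genes for known substrates of these phosphatases, 15 were tested, 9 rose and 2 fell, against 25.0% and 20.4% of all tested genes. Their median log2 fold change was 0.73. Met, the receptor for hepatocyte growth factor and a substrate of CD148, had 132, 137 and 93.9 normalized counts in PBS and 680, 546 and 436 in libraries labelled pIpC, the highest log2 fold change (2.18, SE 0.24, limma adjusted p = 0.000565). Pdgfrb, a receptor for platelet-derived growth factor, had 752, 472 and 424 against 173, 163 and 182, the lowest (-1.62, SE 0.24, adjusted p = 0.00216). The groups of both genes were well apart. The known Ptprt substrates, named after their values were seen, were higher in libraries labelled pIpC, Stat3 by a log2 fold change of 0.91 (SE 0.21, adjusted p = 0.0146) and Pxn, which encodes paxillin, by 1.22 (SE 0.13, adjusted p = 0.000559). RNA levels say nothing about phosphorylation of these proteins.

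Ligands and binding partners were few. Of 15 genes, 6 were tested, 3 rose and 1 fell, against 25.0% and 20.4% of all tested genes. Cd22 and Gpc4 (2 of the 6) passed the filter only through the libraries labelled pIpC, and the Cd22 call is given as description. No reads at all were found for 4 genes, of which 3 encode contactins. Thbs1 (thrombospondin, a ligand of CD148) had 75.3, 107 and 18.1 normalized counts in PBS and 3461, 4675 and 2223 in libraries labelled pIpC, and its log2 fold change was 5.93 (SE 0.65, limma adjusted p = 0.000563), or 5.18 without PBS replicate 3. Megakaryocyte marker sums were also higher, as were the neutrophil, B cell, T and NK cell, erythroid and plasmacytoid dendritic cell sums. The part of any of these cells in Thbs1 was not tested. Lgals1 (galectin-1, which binds CD45) had 8659, 8804 and 24690 against 2708, 2408 and 2209, a log2 fold change of -2.34 (SE 0.40, adjusted p = 0.00438). PBS replicate 3 was the highest library for this short gene, and without it the change was -1.84.

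Non-receptor phosphatases, which work inside the cell, were listed for comparison. Of 17 genes, 14 were tested, 8 rose and 1 fell, against 25.0% and 20.4% of all tested genes. The median of the tested genes was 0.38 on the log2 scale. Ptpn3 and Ptpn14 (2 of the 14) passed the filter only through the libraries labelled pIpC. Their calls are given as description, not as support. Ptpn14, a cytoskeleton-associated phosphatase, had the highest value (3.38, SE 0.67, limma adjusted p = 0.00808) with 5 reads in PBS against 74. Ptpn7, a phosphatase of MAP kinases in blood cells, had the lowest (-0.44, SE 0.12, adjusted p = 0.0321), from 7715 ± 690 to 5690 ± 192 normalized counts, and its call was lost when any library labelled pIpC was left out (adjusted p of 0.105 to 0.136). The count of 9 genes called went from 5 without replicate 1 labelled pIpC to 13 without PBS replicate 3. The plot of the 5 lists shows each tested gene.

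**Figure D3:**
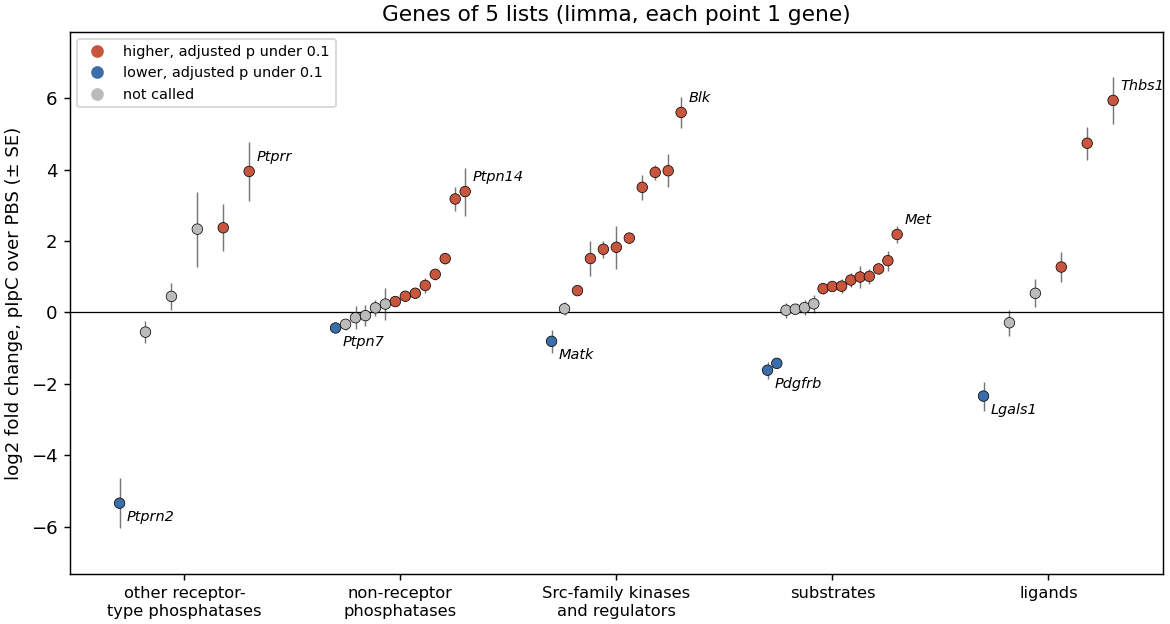
Log2 fold change of libraries labelled pIpC over PBS with its SE (limma, vertical axis) for each tested gene of 5 lists, in order within a list. Red and blue mark genes called higher or lower at an adjusted p under 0.1 and grey those not called. Of 11 tested Src-family kinases and regulators, 9 were called higher and 1 lower, against 25.0% and 20.4% of all tested genes. Of the 11, 4 passed the filter only through the libraries labelled pIpC, and their calls are description. Ptprn2 (-5.34) and Thbs1 (5.93) lie at the ends of the range.

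Ptprt lies between Chd6, whose near end is 413 kb beyond its 3′ end, and Srsf6, 270 kb beyond its 5′ end. Of the 5 nearest protein-coding genes on each side, 7 were tested, 1 rose and 2 fell, 3 of 7 where 45.3% of all genes were called. Mybl2, a cell cycle transcription factor, had 1452, 1399 and 1432 normalized counts in PBS and 2271, 2193 and 2365 in libraries labelled pIpC, and its log2 fold change was 0.67 (SE 0.11, limma adjusted p = 0.00287). Srsf6, a splicing factor, fell by 0.44 on the log2 scale (SE 0.12, adjusted p = 0.0284) and Zhx3, a transcriptional repressor, by 0.50 (SE 0.18, adjusted p = 0.0694). None of the tested neighbours was near the size of the Ptprt difference. The Srsf6 call was lost without replicate 2 or 3 labelled pIpC, where 1 gene was called. The Zhx3 call was lost when any library other than PBS replicate 3 was left out (adjusted p of 0.154 to 0.21), and 5 genes were called without PBS replicate 3.

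Chd6, a chromatin remodeler, had 1408, 1235 and 395 normalized counts in PBS and 1135, 1412 and 1318 in libraries labelled pIpC, for a log2 fold change of 0.54 (SE 0.46, limma adjusted p = 0.397) that was -0.04 without PBS replicate 3. Like Ptprt it was low in that library. Plcg1, a phospholipase of receptor signaling, had -0.34 (adjusted p = 0.203), L3mbtl1, a Polycomb-type chromatin protein, 0.37 (adjusted p = 0.408) and Ift52, a cilium protein, -0.24 (adjusted p = 0.174), and none of these was called. Lpin3, Emilin3 and Sgk2 had too few counts to test, with 1, 0 and 6 reads in PBS and 2, 2 and 3 in libraries labelled pIpC.

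**Figure D4:**
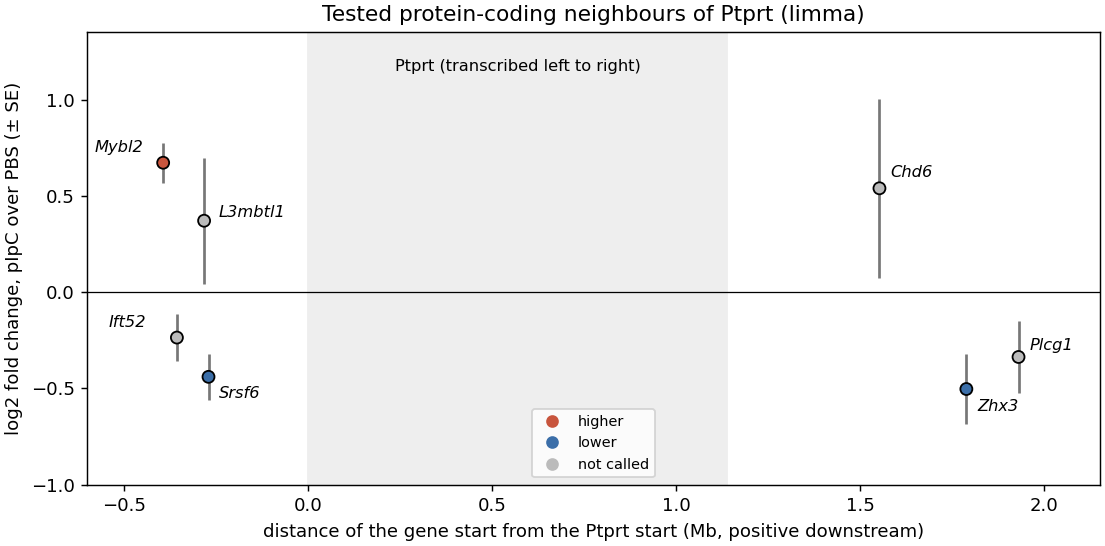
Log2 fold change of libraries labelled pIpC over PBS with its SE (limma, vertical axis) against the distance of each tested neighbour's start from the Ptprt start in Mb, positive in the direction of transcription, with the body of Ptprt shaded. The 7 tested neighbours lie between -0.50 and 0.67, with Mybl2 called higher (red) and Srsf6 and Zhx3 called lower (blue).

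The genes most like Ptprt over the 6 libraries, by Pearson r of log2(normalized count + 1), were Tsc22d2 (r = 0.9997), Igf2bp3 (0.9996), Naip6 (0.9993), Ercc5 (0.9991) and Vac14 (0.9991). The points fall in 2 groups. A gene lower in libraries labelled pIpC gets a high r when its gap is large against its spread within groups. A gap small in itself can suffice, and 903 of 15019 genes reached 0.95, Ptprm (0.971) and Ptprn2 (0.967) included. The 5 genes named above also followed Ptprt within groups. Each had its lowest PBS value in PBS replicate 3. Its highest value among libraries labelled pIpC was in replicate 2, the only one of them with a Ptprt read. Igf2bp3, an RNA-binding protein of fetal cells, had 1654, 1411 and 604 normalized counts in PBS and 5.99, 9.20 and 6.77 in libraries labelled pIpC. Naip6, of a family of close copies between which reads may be split, had 1936, 1803 and 614 against 2.99, 7.15 and 3.87, the values of these 5 nearest to those of Ptprt. Tsc22d2 had a smaller gap, 4732 ± 906 against 628 ± 44.8, as had Ercc5, a DNA repair nuclease (404 ± 26.9 against 196 ± 9.36), and Vac14 (1599 ± 70.8 against 1102 ± 31.4).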

How the data were processed

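The deposited table holds gene counts that the authors divided by 1 size factor per library, read here as a signal. The submitters' processing notes name GRCm38, HISAT2 2.2.1, SAMtools, featureCounts, Subread and edgeR, whereas the study's methods state mm10 with STAR and RSEM through nf-core/rnaseq and DESeq2 normalization, and which of these made the table is not clear. The study's methods also state c-Kit+ cells and a stranded kit, where the labels state GFP+ cells and unstranded libraries. If RSEM was used, reads shared by close copies were split between them. 100% of values above 0 were whole multiples of 1 read (tolerance 0.01 read), so reads could be recovered. They numbered 19277439 to 22378154 in PBS libraries and 22348517 to 23586722 in libraries labelled pIpC. Of 55487 genes 55141 had a symbol, and positions and exonic lengths came from GENCODE M21 (GRCm38).

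The 10 genes and all gene lists were chosen with earlier results of these data known. The test was limma 3.58.1 with an intensity trend (R 4.3.3) on log2(normalized count + 1) for genes with a mean of at least 10, with Benjamini-Hochberg adjustment over all 15020 tested genes and a threshold of 0.1. Fold changes are on this scale and understate low genes. It called 6808 genes, edgeR 4.0.16 on the recovered reads 6901 and DESeq2 1.42.0 7451. Intervals and floors (3 reads over a group) cover counting error only. Named genes were the listed genes, tested family members, the highest and lowest gene of each list, tested neighbours, the 5 genes most like Ptprt and 3 checks, and others are said to be named after their values were seen. The scripts were tested on simulated data. Correlations of deviations from group means between libraries of the same number were -0.117, 0.143 and 0.041, so no pairing was used. No columns of per-sample values were left out.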

Additional observations from a re-analysis of the deposited data

How the results depend on the processing

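Of the 10 listed genes, 9 kept their direction under every alternative that gave them a value, and Ptpre did not (log2 difference of -0.029 with quantile normalization, -0.22 without PBS replicate 3, 0.26 at most with another library left out, and -0.19 with the trend with exonic length removed, with or without a replicate block). The size for Ptprt followed the pseudocount, from -13.21 at 0.1 to -7.69 at 10. Among neighbours, Chd6 was at -0.039 without PBS replicate 3 (up to 0.88 with another library left out) and L3mbtl1 at -0.10 with quantile normalization.

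The other receptor-type phosphatases called, 3 in the report, were 5 with no filter, 0 of 2 tested at a mean of at least 50, 5 with the length trend removed in a fit with a replicate block, and 2 to 5 when 1 library was left out. Src-family kinases and regulators called were 6 of 7 tested at a mean of at least 50 and 7 to 11 with 1 library left out. With 1 library left out, 5 to 13 non-receptor phosphatases, 1 to 5 neighbours, 10 to 11 substrates, 3 to 4 ligands and 4650 to 9783 of all genes were called. Over all genes, the count with 1 library left out was lowest where it was a library labelled pIpC and highest where it was PBS replicate 3. The replicate numbers do not pair the libraries, and with a replicate block 1 neighbour, Mybl2, was called. Removal of the length trend was added after the data were seen.

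The libraries are 3 a group, the Brd9 gene total does not check the labels, and Ptprk, Ptprg, Ptprd, Ptprh and Ptprn rest on few reads.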
